A study of Sus scrofa with 3 samples.

Results

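The miR-221 and miR-222 cluster is a pair of neighbouring miRNA hairpins on 1 strand of the pig genome. Its members were taken as every row that carries a porcine mature name of miR-221 or miR-222, whichever arm of the hairpin it comes from. The rule gave 3 of the 276 porcine mature miRNAs read here: ssc-miR-222, ssc-miR-221-3p and ssc-miR-221-5p. All 3 were detected in every library.

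Small RNA of the psoas major, a muscle that runs along the lumbar spine, was sequenced from castrated male hybrid pigs (Landrace × Large White × Duroc) of 63, 98 and 161 d of age. The pigs of the 3 ages shared breed cross, sex and castration, and their diets changed with body weight. Equal amounts of RNA of 6 pigs were pooled into 1 library per age, so the 3 libraries have no replicates, the spread between pigs is not measured and no p-value is given. The comparisons ask how the miRNAs of this muscle differ between the 3 ages.

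The miR-221 and miR-222 hairpins lie close together on the X chromosome of mammals and are generally made from a shared primary transcript. Their 3p arms share a seed, the stretch near the 5′ end through which a miRNA pairs with its target mRNAs. They are best known for lowering the cell cycle inhibitor p27 (CDKN1B) in dividing cells, they are abundant in vessel walls, and in cultured myoblasts they are high during growth and fall when the cells differentiate. Whole muscle holds myoblasts, fibres, vessels and blood together, so the libraries do not show in which cells the members were made. In such bulk samples fewer cells of a type and less RNA per cell cannot be told apart.

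The known mature sequences are shown first because they decide which reads belong to which member and which members share a seed. They are written 5′ to 3′ as DNA letters, and capitals mark the seed, bases 2 to 8.
ssc-miR-222: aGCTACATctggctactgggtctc
ssc-miR-221-3p: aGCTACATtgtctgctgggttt
ssc-miR-221-5p: aCCTGGCAtacaatgtagatttctgt
The seed GCTACAT is common to the 3p arms, and no other porcine name had a representative read with it in any library. The first 8 bases of ssc-miR-222 and ssc-miR-221-3p were identical, the first difference stood at base 9, and 11 of the 22 bases compared were the same. Reads of full length therefore separate these arms. The 5p arm carries another seed, CCTGGCA.

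The deposited files give the hairpins themselves. The hairpin of ssc-mir-221 spans 101 bases, from 45274858 to 45274958, and that of ssc-mir-222 spans 114 bases, from 45275598 to 45275711. Both are placed on 1 genome sequence, minus strand, for which the files name neither a chromosome nor a build. In the hairpins below, capitals mark the mature arms that have a porcine name.
ssc-mir-222: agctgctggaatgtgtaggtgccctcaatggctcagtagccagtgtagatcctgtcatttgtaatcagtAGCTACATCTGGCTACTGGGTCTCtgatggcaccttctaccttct
ssc-mir-221: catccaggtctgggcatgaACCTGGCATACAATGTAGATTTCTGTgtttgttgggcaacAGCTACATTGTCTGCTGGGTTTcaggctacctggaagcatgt
ssc-miR-222 fills bases 70 to 93 of its hairpin, which is 45275619 to 45275642 of the genome sequence. ssc-miR-221-5p fills bases 20 to 45 of its hairpin (45274914 to 45274939) and ssc-miR-221-3p bases 60 to 81 (45274878 to 45274899). Read along the transcribed strand, mir-222 comes first and mir-221 follows after 639 bases. The folding energies listed in the files were -55.4 kcal/mol for mir-222 and -43.3 kcal/mol for mir-221, with GC contents of 49.1% and 48.5%. RefSeq's annotation of the assembly Sscrofa11.1 holds both as miRNA genes, MIR221 and MIR222, with 0 genes between them, and its nearest protein-coding entries on either side are CXHXorf36 and LOC110257782.

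**Figure D1:**
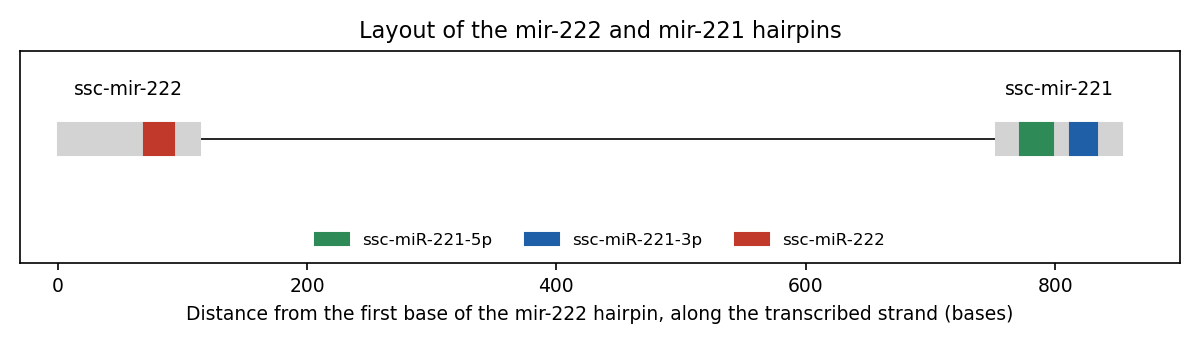
Layout of the mir-222 and mir-221 hairpins along the transcribed strand, with the distance in bases from the first base of mir-222 on the x axis, hairpins in grey and the named mature arms in colour. The hairpins stand 639 bases apart, and mir-222 has 1 named arm where mir-221 has 2.

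The level of a member is the number of reads of all its isoforms per 1000000 reads listed in the file of its library (RPM). The libraries of 63, 98 and 161 d held 1464699, 2418187 and 2242716 listed reads, so that 3 reads, the floor used here, correspond to 2.05, 1.24 and 1.34 RPM. A name listed at several hairpins is counted at 1 of them. The muscle miRNA ssc-miR-133a-3p took 43.3%, 36.2% and 44.0% of the listed reads over its 2 hairpins, and 20.8%, 17.4% and 21.2% at the hairpin counted. The members have 1 hairpin each. Intervals are 95% intervals and cover counting error only, since 1 pooled library per age leaves out the spread between pigs. Reads copied by PCR are not independent molecules, so the intervals may be too narrow even for counting error.

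ssc-miR-222 had 395 reads in the 63 d library, 771 in the 98 d library and 546 in the 161 d library. These are 270 RPM (exact Poisson interval 244 to 298), 319 RPM (297 to 342) and 243 RPM (223 to 265). The 98 d library was thus the highest and the 161 d library the lowest, and the interval of 63 d overlapped both of the others. Among the porcine mature miRNAs detected (261, 265 and 264 at 63, 98 and 161 d), it ranked 90, 95 and 97. Its neighbours in that order were ssc-miR-574 and ssc-miR-130a at 63 d, ssc-miR-542-3p and ssc-miR-205 at 98 d, and ssc-miR-205 and ssc-miR-29c at 161 d. The counting intervals of its level covered the ranks 89 to 92, 93 to 97 and 95 to 100, so it could not be told from these neighbours within counting error.

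ssc-miR-221-3p was the most abundant member at every age. It had 949, 1777 and 1405 reads, which are 648 RPM (607 to 690), 735 RPM (701 to 770) and 626 RPM (594 to 660). The order of the libraries was the same as for ssc-miR-222, with 98 d highest, and again the intervals of 63 and 161 d overlapped. It ranked 60, 62 and 65, and its counting intervals covered the ranks 59 to 64, 61 to 66 and 62 to 68.

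ssc-miR-221-5p, the other arm of the same hairpin, was near the limit of detection. It had 5, 16 and 14 reads, or 3.41, 6.62 and 6.24 RPM, and ranked 230, 223 and 224. Its read counts carry exact Poisson intervals of 1.62 to 11.7, 9.15 to 26.0 and 7.65 to 23.5 reads, so the 3 libraries overlapped and no difference with age was detectable at this depth. The order ssc-miR-221-3p, ssc-miR-222, ssc-miR-221-5p held in each library, with intervals that did not overlap.

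**Figure D2:**
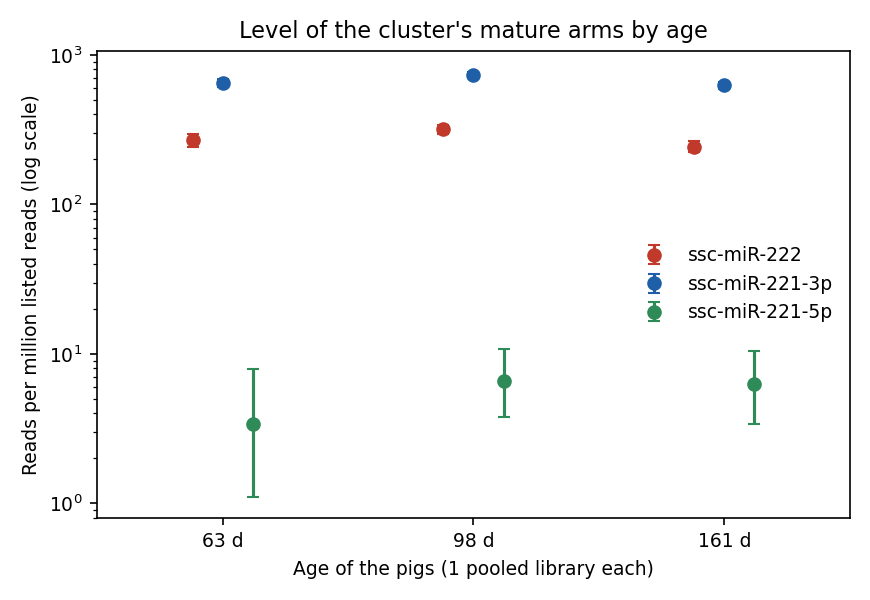
Level of ssc-miR-222, ssc-miR-221-3p and ssc-miR-221-5p in the 3 pooled libraries, with age on the x axis and RPM on a log y axis. Points are the 1 library of each age and bars the exact Poisson interval. ssc-miR-221-3p stays between 626 and 735 RPM and ssc-miR-222 between 243 and 319 RPM, and ssc-miR-221-5p lies below 7 RPM.

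**Figure D3:**
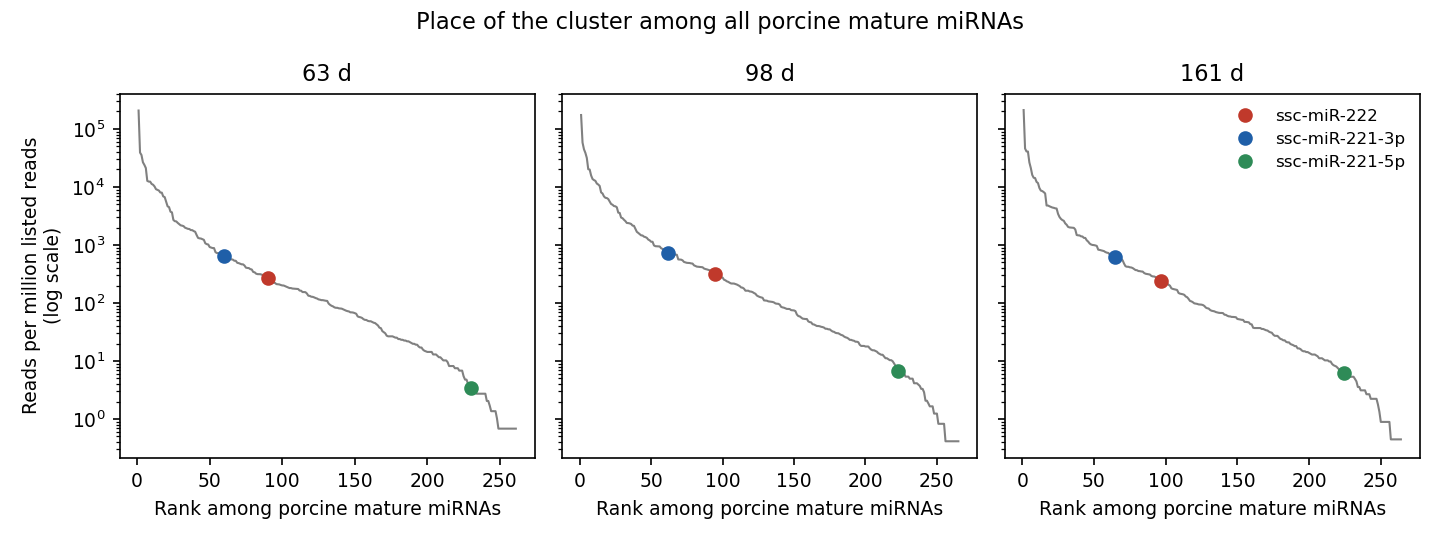
Porcine mature miRNAs of each library in order of abundance, with rank on the x axis and RPM on a log y axis. The coloured points place ssc-miR-221-3p at ranks 60 to 65, ssc-miR-222 at ranks 90 to 97 and ssc-miR-221-5p at ranks 223 to 230.

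The arms that share the seed were also added up, since a target site that pairs with the seed alone would not tell them apart. Their sum was 1344, 2548 and 1951 reads in the 3 libraries, or 918 RPM (869 to 968), 1054 RPM (1013 to 1095) and 870 RPM (832 to 909). ssc-miR-222 supplied 29.4%, 30.3% and 28.0% of these reads.

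Between 63 and 98 d the read level of ssc-miR-222 was 1.18-fold higher (Clopper-Pearson interval 1.05 to 1.34) and that of ssc-miR-221-3p 1.13-fold higher (1.05 to 1.23). Tested were 229 porcine mature miRNAs with a mean of at least 10 reads over the 3 libraries and reads in both of the pair. Of these, 15.3% passed a 2-fold change in either direction, and neither ssc-miR-222 nor ssc-miR-221-3p did. Their intervals lay above 1, as did those of 48.9% of the 229.

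Between 98 and 161 d the level of ssc-miR-222 was 0.764-fold (0.683 to 0.853) and that of ssc-miR-221-3p 0.853-fold (0.794 to 0.915). Of 231 miRNAs, 12.6% passed a 2-fold change and 55.4% had an interval below 1. Both arms were among the latter and neither was among the former.

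Over the whole span, from 63 to 161 d, the changes were 0.903-fold (0.792 to 1.03) for ssc-miR-222 and 0.967-fold (0.890 to 1.05) for ssc-miR-221-3p. These intervals include 1, while those of 69.4% of 232 miRNAs left it out and 18.1% passed a 2-fold change. On this scale a change of either arm over these ages was therefore not detectable at this depth, within the bounds that these intervals give.

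The higher level at 98 d was shared by most miRNAs on this scale. The median fold change of all porcine mature miRNAs tested was 1.24 in the first pair (98 over 63 d), 0.809 in the second (161 over 98 d) and 1.01 over the whole span, a shift of 0.31 and -0.31 on the log2 scale in the first and the second. Relative to that median ssc-miR-222 was 0.953-fold, 0.944-fold and 0.893-fold in these comparisons, and ssc-miR-221-3p was 0.915-fold, 1.05-fold and 0.957-fold. Only 9.61%, 14.3% and 16.4% of all miRNAs tested lay nearer to the median than ssc-miR-222, and 14.8%, 13.0% and 6.03% lay nearer than ssc-miR-221-3p. The abundant arms of the cluster were thus nearer to the middle of the distribution than most miRNAs in every pair. That set reached down to a mean of 10 reads, where counting error spreads fold changes more widely. No set of like abundance was compared.

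Which way the arms moved around 98 d depended on how the libraries were scaled. With edgeR's TMM factors, which set the bulk of the miRNAs level, the fold change from 63 to 98 d became 0.959 for ssc-miR-222 and 0.920 for ssc-miR-221-3p, and that from 98 to 161 d became 0.942 and 1.05. Over 5 scalings ssc-miR-222 ranged from 0.959 to 1.18 in the first pair, from 0.764 to 0.949 in the second and from 0.852 to 0.914 over the whole span. For ssc-miR-221-3p these ranges were 0.920 to 1.13, 0.853 to 1.06 and 0.913 to 0.979. Under each of the 5 scalings both arms were lower at 161 d than at 63 d, within counting error except with totals of porcine names, whereas copies of the representative read alone gave 1.07 and 1.08. For ssc-miR-222 that read was 25 bases long at 63 d and 23 bases at 161 d, so its 1.07 compares different isoforms. The authors' own normalization was not among the 5 scalings. On that scale the changes of ssc-miR-1 and ssc-miR-143-3p from 63 to 161 d were larger than the 1.72-fold and 2.97-fold found here. For both miRNAs the paper's fold change exceeded the one found here by about the same factor. Scaled by that factor, ssc-miR-222 and ssc-miR-221-3p would be slightly higher at 161 d than at 63 d. Their own values on the authors' scale were not compared. TMM also changed the split of the background, from 28 miRNAs above 2-fold and 7 below 0.5-fold to 12 and 21 in the first pair, and from 5 and 24 to 11 and 12 in the second.

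**Figure D4:**
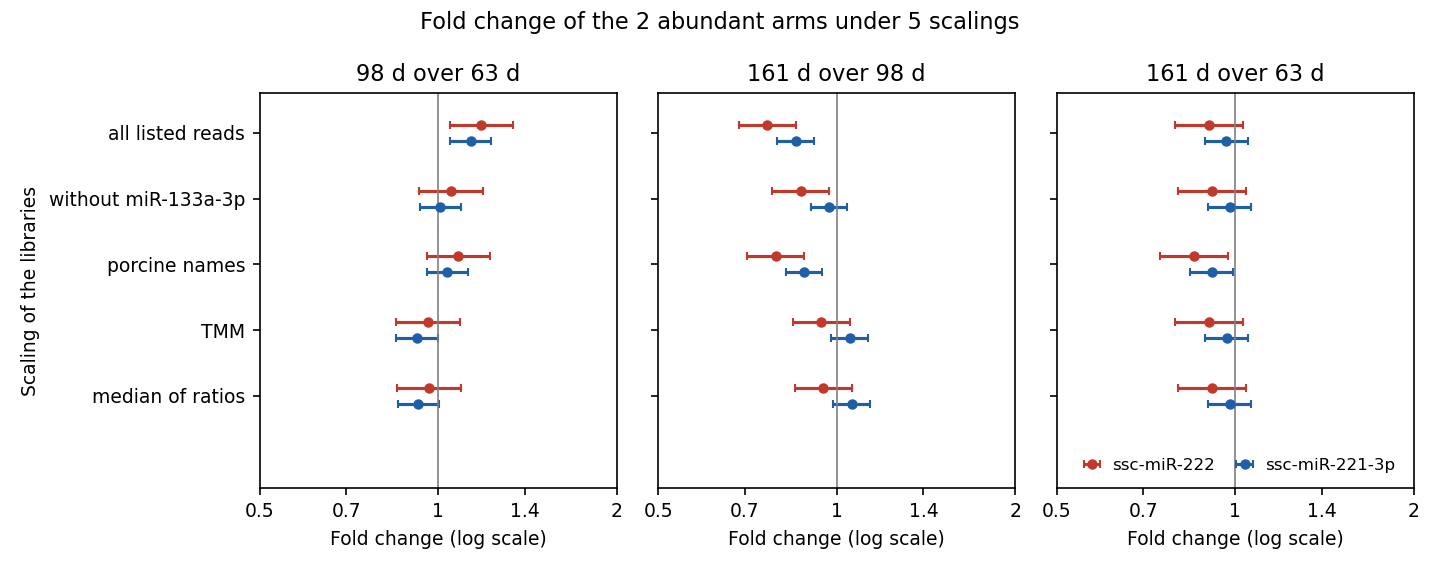
Fold change of ssc-miR-222 and ssc-miR-221-3p in the 3 pairs of ages under 5 ways of scaling the libraries, with the fold change of the later over the earlier age on a log x axis and Clopper-Pearson counting intervals as bars. Every point lies between 0.764 and 1.18, and in the first pair the points sit on both sides of 1.

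The ratio of the abundant arms within a library needs no scaling between libraries. At 63, 98 and 161 d there were 0.416, 0.434 and 0.389 reads of ssc-miR-222 for each read of ssc-miR-221-3p. The Clopper-Pearson intervals ran from 0.369 to 0.469, from 0.398 to 0.472 and from 0.351 to 0.429, and all overlapped. The ratio at 98 d was 1.04 times that at 63 d (0.902 to 1.20), the ratio at 161 d was 0.896 times that at 98 d (0.786 to 1.02), and from 63 to 161 d the factor was 0.934 (0.801 to 1.09). No change of the ratio with age was detectable within these bounds. When only copies of the most frequent read were counted the ratio was lower, at 0.315, 0.366 and 0.312.

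**Figure D5:**
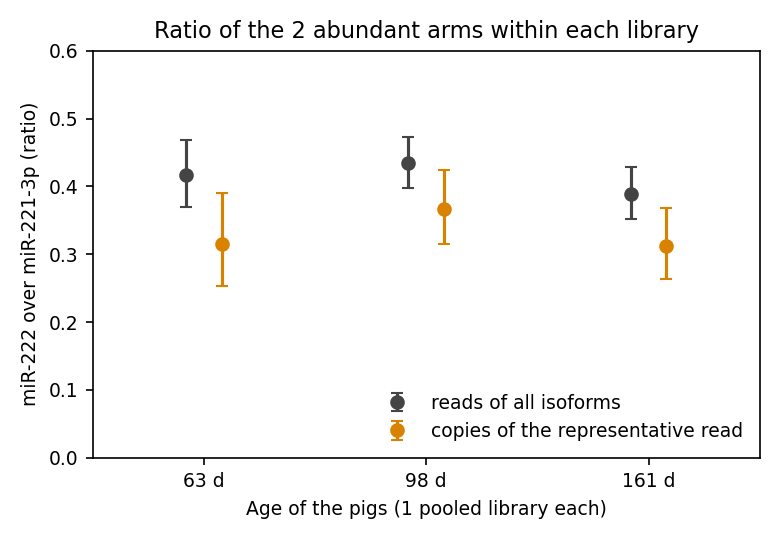
Ratio of ssc-miR-222 to ssc-miR-221-3p within each library, with age on the x axis, counted on the reads of all isoforms or on copies of the representative read only, and with Clopper-Pearson intervals as bars. The ratios of all isoforms lie between 0.389 and 0.434 and those of copies between 0.312 and 0.366.

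Each arm's reads were divided among isoforms, variants that start or end at slightly different bases. The most frequent read of ssc-miR-221-3p was the known 22-base sequence in every library and made up 38.1%, 37.9% and 42.6% of its reads. ssc-miR-222 was more divided. Its most frequent read, 114, 247 and 187 copies, made up 28.9%, 32.0% and 34.2% of its reads. It was 25 bases long at 63 d and 23 bases long at 98 and 161 d, against the known 24 bases. The end of the read is shown because it is where these isoforms differ, and capitals again mark the seed.
ssc-miR-222 at 63 d: aGCTACATctggctactgggtctct
ssc-miR-222 at 98 and 161 d: aGCTACATctggctactgggtct
Both forms matched the hairpin without a mismatch and kept the same 5′ end, so the seed was unchanged. Among the porcine miRNAs with 1 hairpin and at least 100 reads, the median share of the most frequent read was 55.7% over 122 miRNAs at 63 d, 53.7% over 137 at 98 d and 55.8% over 129 at 161 d. Only 9, 11 and 17 of them had a lower share than ssc-miR-222, and 23, 29 and 34 a lower share than ssc-miR-221-3p.

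The files also split reads by whether they matched without error. Reads with a mapping error made up 11.6%, 9.08% and 8.97% of ssc-miR-222 and 19.8%, 22.3% and 17.8% of ssc-miR-221-3p at 63, 98 and 161 d. The arms lay on either side of the median of the miRNAs above, which was 15.9%, 15.4% and 15.5%.

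In the mir-221 hairpin nearly all reads came from the 3p arm. The 5p arm held 0.524%, 0.892% and 0.987% of the reads of both arms at the 3 ages, with Wilson intervals from 0.224% to 1.22%, from 0.550% to 1.44% and from 0.589% to 1.65%. The share of the rarer arm had a median of 4.49% over 41 porcine miRNAs with both arms named and at least 100 reads at 63 d, 5.75% over 46 at 98 d and 5.60% over 47 at 161 d. A lower share than that of mir-221 was found for 12, 14 and 14 of them. Its most frequent 5p read was 23 bases long at 63 d, with 4 copies, and the known 26 bases at 98 and 161 d, with 8 and 7 copies.

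The 5p arm of mir-222 has no porcine name here, but reads that resemble it were present. They were listed under the platypus name oan-miR-222a-5p, as 1, 1 and 3 reads placed on the pig hairpin and 14, 63 and 36 reads that the files place nowhere on the pig genome. The latter are 9.56, 26.1 and 16.1 RPM and amount to 3.42%, 7.55% and 6.19% of their sum with the reads of ssc-miR-222. Whether they came from this hairpin was not tested. The pig hairpin at bases 30 to 52 is shown because these reads differ from it in letters, and the capital marks base 40.
pig mir-222, 5p side: ggctcagtagCcagtgtagatcc
With the pig base first and positions counted from the 5′ end of the hairpin, C40T was carried by all 6 representative reads, 2 in each library. At base 30 all 3 reads that reach it differed, by G30C in 1 and G30T in 2. At base 51, 3 of the 5 reads that reach it differed, by C51A in 1 and C51T in 2. The platypus sequence of that name also has T at base 40, and the reads are listed under that name, so a variant of these pigs, a difference of the genome build and a choice made by the listing cannot be told apart. The 15 letters of the pig hairpin around base 40 were found in 0 of the representative reads of any library, and the same letters with the T in 2 rows of each. Less frequent reads are not listed one by one in the files and could not be examined.

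The porcine miRNAs whose levels ran most like those of ssc-miR-222 over the 3 libraries were found by the root mean square difference of log2 RPM, after each miRNA was centred on its own mean. Among the 140 miRNAs with at least 100 reads in every library, ssc-miR-222 itself included, the nearest other one was ssc-miR-361-5p, at 0.0639. ssc-miR-221-3p was second at 0.0655, followed by ssc-miR-574 at 0.0764, ssc-miR-126-3p at 0.0770 and ssc-miR-199a-3p at 0.0917, and the median distance was 0.257. These are distances over 3 points that share their depth and are given as a description. With ssc-miR-221-3p as the reference, ssc-miR-222 was the 4th nearest.

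Markers of cell types that whole muscle contains were set beside the cluster as summed RPM. The endothelial miR-126, both arms together, stood at 5833, 9769 and 6759 RPM at 63, 98 and 161 d, with ssc-miR-126-3p at 2183, 2894 and 1976 RPM. The red blood cell miRNAs miR-451 and miR-144 stood at 808, 1491 and 1069 RPM. The white blood cell list stood at 1185, 1622 and 1088 RPM, with all 4 listed arms of miR-142, miR-150 and miR-155 present and no row for porcine miR-223. The sums of these 3 lists were highest at 98 d in RPM. ssc-miR-150 of the white blood cell list ran otherwise, at 464, 435 and 287 RPM. The abundant arms of the cluster were also highest at 98 d in RPM, but not with TMM or median-of-ratios factors. These put ssc-miR-222 at 0.959 and 0.963 and ssc-miR-221-3p at 0.920 and 0.924 of their 63 d levels. The same factors would leave the sums of the 3 lists highest at 98 d. The shared order of cluster and lists is thus one of the RPM scale.

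The smooth muscle list took another course. miR-143 and miR-145 together had 9415, 11874 and 27273 RPM, and 3 of their 4 arms were more than 2-fold higher at 161 d than at 63 d, against 7.33% of all miRNAs tested. Most of these RPM were ssc-miR-143-3p, with 8916, 11451 and 26506 RPM, so the sum follows that arm. In the first pair 2 of the 4 arms were above 1, while ssc-miR-143-5p and ssc-miR-145-5p were 0.797-fold and 0.802-fold. The counting interval of ssc-miR-143-5p there included 1. At 63 d, ssc-miR-143-5p and ssc-miR-145-3p, both past 2-fold at 161 d, had only 19 and 32 reads. The fibre miRNAs, the list of miR-1, miR-133a, miR-133b, miR-206, miR-208b and miR-499, had 225286, 212933 and 237714 RPM at the hairpins counted and 450735, 401249 and 466147 RPM over all hairpins. Most of these RPM were ssc-miR-133a-3p, with 207677, 173743 and 211596 RPM at the hairpin counted, so the sums follow that arm. In the first pair it was 0.837-fold, while 5 of the 7 fibre arms tested were above 1. So were most of all miRNAs tested, whose median fold change was 1.24. The median fold change of the fibre arms at the hairpins counted was 1.43 over 7 arms tested in the first pair, 0.723 in the second and 1.02 over the whole span. With miR-486 added, the muscle-enriched list had 264467, 251612 and 278623 RPM at the hairpins counted and 489916, 439928 and 507056 RPM over all hairpins, with medians of 1.33, 0.768 and 1.03. ssc-miR-133a-3p made up most of this sum too. In the first pair 5 of the 8 arms tested were above 1, again beside the median of 1.24 over all miRNAs. The part that shares of vessel, blood and fibre RNA had in the levels of the cluster was not tested.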

How the data were processed

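Small RNA of pooled pig psoas major was measured in 1 library for each of 63, 98 and 161 d, grouped by the age in the labels. The authors ran ACGT101-miR 4.2 on each library, which filtered the reads and mapped them to miRBase hairpins and the pig genome, whose build is not given in the sources used here. A count in the deposited files is how often an arm's representative read was sequenced, and is not normalized. The expected count, which the authors' pipeline also deposited without normalization, gives the reads of all isoforms at an arm and divides a read between hairpins it matches. The 63 d file has a layout of its own, and 139 of its rows without a name took the name of the earlier row with the same sequence.

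Expected counts were divided by all reads listed in the file and given per 1000000 (RPM). A name with several hairpins was counted at the 1 that most libraries list. The 3 members have 1 hairpin each. Expected counts were rounded for intervals only, and no pseudocount was used. Levels carry exact Poisson intervals, fold changes and ratios Clopper-Pearson intervals and shares Wilson intervals, all at 95%. With 1 library per age no test across samples was possible. The alternatives were TMM factors of edgeR 4.0.16, median-of-ratios factors of DESeq2 1.42.0, totals without ssc-miR-133a-3p, totals of porcine names, copies of the representative read, reads without mapping errors, 1 added read, all hairpins summed and other minimum counts. Marker list levels over all hairpins were added after the data had been seen. Only scaling factors were taken from the R packages (R 4.3.3). Python 3.11.15 with numpy 2.4.6, scipy 1.17.1, pandas 2.3.3 and matplotlib 3.10.9 was used for the rest. The fold changes were tested on simulated Poisson counts, some with planted changes beyond 2-fold. Such counts hold no PCR copying, no spread between pigs and no error of scaling, so those were not checked.

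The miRNAs named are the members, rows of miR-221 or miR-222 under other species' names or with the shared seed, the neighbours of a member by rank, the 5 miRNAs most like ssc-miR-222 and the marker lists. The reverse comparison, from ssc-miR-221-3p, was added after values were seen. Members and lists were chosen with earlier results of these data known. RefSeq served for gene names and neighbours only.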

Additional observations from a re-analysis of the deposited data

Results flagged for a closer look

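Reads from outside the porcine names were present in all 3 libraries without a control to set them against. Under oan-miR-222a-5p, 14, 63 and 36 reads at the 3 ages stood off the pig genome, with Poisson intervals from 7.65 to 23.5, from 48.4 to 80.6 and from 25.2 to 49.8 reads, all above the floor of 3 counts in each library. Under oan-miR-222b-3p, which has the seed of the 3p arms, 6, 8 and 10 reads stood off the pig genome, with Poisson intervals from 2.20 to 13.1, from 3.45 to 15.8 and from 4.80 to 18.4 reads, of which the first reaches below that floor. Against the pig hairpin, with positions from the read's 5′ end and the pig base first, their representative reads carried G12A with C13T at 63 and 98 d and G12A with C13A at 161 d. T23A was added to these in the 63 d read and in the more abundant of the pair of 161 d rows. Neither set was counted in the levels of ssc-miR-222.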

How the results depend on the processing

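Under the alternatives run, 0 fold changes of ssc-miR-222 or ssc-miR-221-3p passed 2-fold. Directions around 98 d did turn: from 63 to 98 d, TMM and median-of-ratios factors gave 0.959 and 0.963 for ssc-miR-222 and 0.920 and 0.924 for ssc-miR-221-3p, and from 98 to 161 d they gave 1.05 and 1.06 for ssc-miR-221-3p. From 98 to 161 d ssc-miR-222 became 0.942 and 0.949 with these factors and 0.870 with totals without ssc-miR-133a-3p. For ssc-miR-221-3p those totals gave 1.01 from 63 to 98 d and 0.971 from 98 to 161 d, and totals of porcine names gave 1.04 from 63 to 98 d. Copies of the representative read gave 1.07 for ssc-miR-222 and 1.08 for ssc-miR-221-3p from 63 to 161 d, 0.958 for ssc-miR-221-3p from 98 to 161 d, and arm ratios of 0.315, 0.366 and 0.312. For ssc-miR-222 that read was 25 bases long at 63 d and 23 bases at 161 d. Above a mean of 100 reads, 18, 16 and 22 miRNAs passed 2-fold, against 35, 29 and 42 of 229, 231 and 232 above a mean of 10. The higher minimum also left fewer miRNAs to test, so these counts do not compare shares. With all hairpins summed, ssc-miR-222 ranked 95, 100 and 101. Beyond the construction of each alternative, the cause was not tested. Of the alternative fold changes of the 3 members, 48 stayed within the counting interval of the value reported. On the other side of 1 were 12 of 63: 3 of ssc-miR-222, 5 of ssc-miR-221-3p and 4 of ssc-miR-221-5p, the last all from 98 to 161 d (0.943 as reported, 1.01 to 1.17) and within its interval. No paired analysis was possible because each age has 1 library. Depth limits ssc-miR-221-5p, with 5 to 16 reads, and pooling hides the spread between pigs.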
